A study of Mus musculus with 4 samples.

Results

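The glutathione, thioredoxin and peroxidase genes are the enzymes and regulators that cells use to remove peroxides and superoxide and to keep protein thiols reduced. They were examined in LSK cells, blood stem and progenitor cells gated by absence of lineage antigens and presence of Sca-1 and Kit, from the livers of Brpf1-null and wild-type mouse embryos at E14.5. BRPF1 is a chromatin reader that serves as a scaffold for MYST-family histone acetyltransferases. The members were picked by a rule on gene symbols that was set with earlier results of these data known. It took the Gst, Mgst, Gpx, Prdx, Txnrd and Glrx families. Named genes of thioredoxin, glutathione synthesis, superoxide and peroxide removal and the NRF2 pathway were added. The rule found 61 of the 20207 genes in the table. The labels describe 2 Brpf1-null and 2 wild-type samples, each a pool from 4 embryos, and do not name the driver or timing of the deletion or the strain. The tables of both pairs held the same values, and the sources used here do not say which pair these come from or whether reads of both were merged. They were treated as 1 library per genotype (n = 1), of about 22224958 reads for Brpf1-null and 23648796 for wild-type. No difference has a replicate check and no p-value was computed.

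Glutathione is a tripeptide made from glutamate, cysteine and glycine, and its free thiol is the electron donor of glutathione peroxidases and the group that glutathione transferases join to reactive compounds. Thioredoxins play a parallel role for peroxiredoxins and ribonucleotide reductase, and both systems are kept reduced with electrons from NADPH. The transcription factor NRF2, encoded by Nfe2l2, switches on many of these genes through the antioxidant response element, and KEAP1 marks NRF2 for degradation until oxidants modify it. Red cell precursors and hepatocytes, both abundant in the fetal liver, are known for high levels of several of these enzymes.

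Levels are given in RPKM, reads per kilobase of gene, scaled to library size. Changes are log2((Brpf1-null RPKM + 1)/(wild-type RPKM + 1)), and a gene is counted as higher or lower past 1.5-fold on that scale. Folds in the text are plain ratios of RPKM, with a 95% counting interval in brackets that covers counting error only and treats reads as independent, which PCR copies are not. Of the 61 members, 45 averaged at least 1 RPKM over both libraries and were kept. The other 16 fell below this level and were not counted as higher or lower. Of these, 5 (Gpx5, Gpx6, Gsta1, Gsta2 and Sod3) were listed at 0 in both libraries. Gpx8 and Gstt4 were listed at 0 in the Brpf1-null library, against 0.707 RPKM (Gpx8) and 0.352 RPKM (Gstt4) in wild-type. The remaining low members included Gpx2, Gpx7, Slc7a11, Gstm2, Gstm3, Gstm6, Gsto2 and Gstp2, which ran from 0.0407 RPKM (Slc7a11, wild-type) to 1.045 RPKM (Gpx7, wild-type). The filter separated Srxn1 (mean 1.04 RPKM) from Gstm3 (mean 0.807 RPKM).

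Most of the kept members had lower RPKM in Brpf1-null than in wild-type. A decrease past 1.5-fold was seen for 17 of the 45 (37.8%) and an increase past it for 2, Keap1 and Gstm4, which left 26 between these limits. Over the whole table of kept genes 9.42% were lower and 14.1% higher by that much. Past 2-fold, 4 members were lower and 1 was higher, where 3.46% of all kept genes were lower and 4.14% higher. The log2 change was below 0 for 38 of the 45 members (84.4%), against 45.9% of all kept genes. The members' median change on the log2 scale was −0.46, beside 0.04 for all kept genes. Nominal 95% order-statistic limits over the members were −0.63 and −0.32. These limits treat genes as independent, but genes share both libraries, so the limits say nothing about differences between embryos. Centring each library on its median moved all changes by −0.11 and put 44.4% of all genes past 1.5-fold on the higher side, against 59.9% uncentred. On that scale 12.8% of all genes and 46.7% of members were lower, and 39 members had a negative change. In read terms, the counting interval lay below 1 for 31 members, above 1 for 5 and included 1 for 9. The same count was not made over all kept genes, so it does not set the members apart. All 17 members past the lower threshold had an interval below 1. They were picked on the same values, so this adds no support to their calls.

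**Figure D1:**
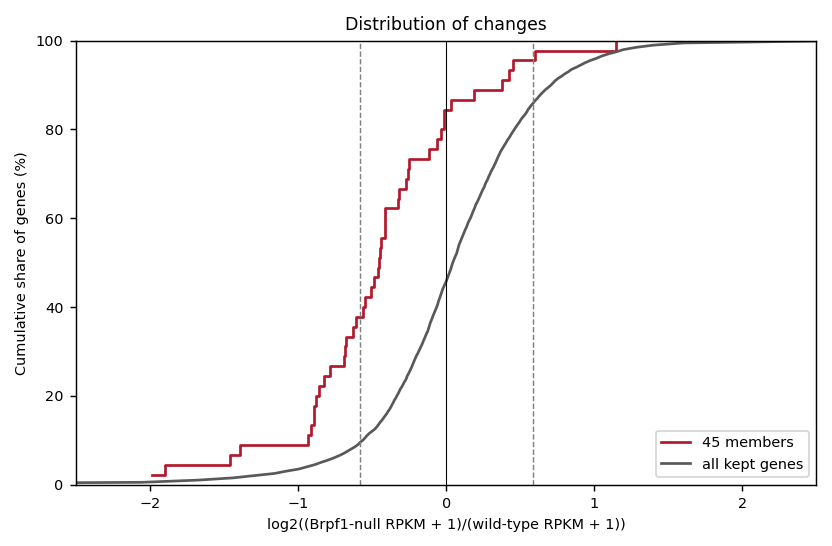
Cumulative share of genes (y axis, %) by log2 change of Brpf1-null over wild-type (x axis, log2 of RPKM + 1), for the 45 kept members (red) and all kept genes (grey); dashed lines mark 1.5-fold. The member curve lies to the left, with its median at −0.46 against 0.04.

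The 61 members took 1.39% of summed RPKM in the Brpf1-null library and 1.91% in the wild-type library, with sums of 4732 RPKM in Brpf1-null and 6913 RPKM in wild-type. Gpx1 alone held 38% of the member sum in the Brpf1-null library and 39.7% in wild-type. Without Gpx1 the sums were 2933 RPKM in Brpf1-null and 4171 RPKM in wild-type, so the lower total did not rest on that gene. Of the 10 members averaging 100 RPKM or more, 4 were past 1.5-fold lower and all 10 had a negative change, though that of Glrx3 was 0.01 under quantile normalization and 0.07 with the GC trend taken out, and that of Txn2 was 0.04 under quantile normalization. Of all 597 genes at that level 6.37% were lower past 1.5-fold, with a median log2 change of −0.08. How many of the 597 had a negative change was not counted, so the 10 of 10 has no background share beside it.

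**Figure D2:**
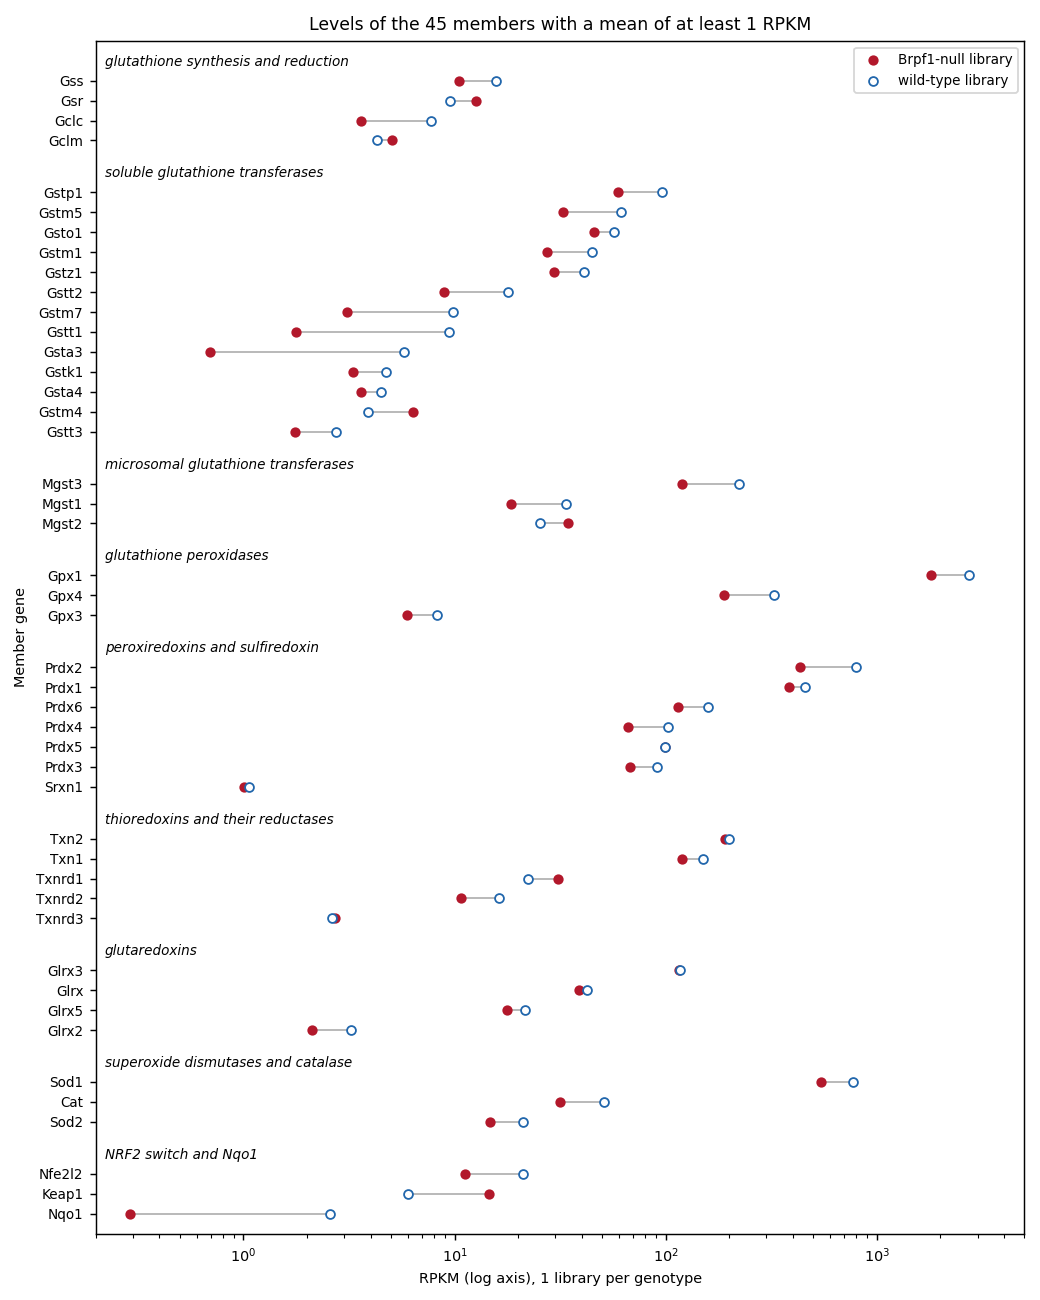
RPKM (x axis, log scale) of each kept member in the Brpf1-null library (filled red) and the wild-type library (open blue), 1 library per genotype, by family. Levels run from Nqo1 at 0.290 RPKM in Brpf1-null to Gpx1 at 2742 RPKM in wild-type, and most red points lie left of their blue partner.

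Markers of several other cell types differed between the libraries from which all member values come. In bulk RNA, fewer cells of a type and less RNA per cell cannot be told apart. The gate genes were present in both libraries: Kit was at 21.3 RPKM in Brpf1-null and 25.6 RPKM in wild-type, and Ly6a, which encodes Sca-1, at 9.51 RPKM in Brpf1-null and 10.6 RPKM in wild-type. The lineage gene Cd3e was listed at 0 in both. Of 20 hepatocyte markers 18 were kept and all 18 were lower past 1.5-fold, with sums of 592 RPKM in Brpf1-null and 2255 RPKM in wild-type; Apoc3 was listed at 0 in both libraries and Apob in Brpf1-null, and Apoa2 was the most abundant at 167.5 RPKM in Brpf1-null and 653.7 RPKM in wild-type. Of 21 erythroid markers 17 were kept and all 17 were lower, with sums of 429 RPKM in Brpf1-null and 1732 RPKM in wild-type; Hba-a1 and Hba-a2, near-identical copies, were listed at 0 in both, and Car2 was the most abundant at 300.9 RPKM in Brpf1-null and 963 RPKM in wild-type. B-lineage markers summed to 89.2 RPKM in Brpf1-null and 290 RPKM in wild-type, and 10 of the 11 kept were lower; Pax5 was listed at 0 in both. Neutrophil markers split, with 6 of 10 kept lower and 1 (Mpo) higher, a median of −1.22 and sums of 891 RPKM in Brpf1-null and 769 RPKM in wild-type. Of 6 kept megakaryocyte markers 4 were lower, with sums of 64.0 RPKM in Brpf1-null and 127 RPKM in wild-type. Other lists went both ways. Of 14 kept monocyte and macrophage markers 6 were higher and 4 lower. Of 5 kept mast cell, basophil and eosinophil markers 2 were higher and 2 lower. Of 5 kept endothelial markers 1 was higher and 1 lower, with a median of −0.11. The part of these cell types in the members' changes was not tested.

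Glutathione synthesis was uneven along its steps. Gclc, the catalytic subunit of the rate-limiting ligase, was at 3.62 RPKM in the Brpf1-null library and 7.71 RPKM in wild-type, 2.13-fold lower (1.85 to 2.47). Its modifier subunit Gclm was at 5.05 RPKM in Brpf1-null and 4.31 RPKM in wild-type, with an interval on the fold that included 1 (0.885 to 1.54). The ratio of catalytic to modifier transcript was therefore 0.716 in Brpf1-null and 1.79 in wild-type, on the RPKM scale. Gss, which adds glycine to complete glutathione, was at 10.44 RPKM in Brpf1-null and 15.7 RPKM in wild-type, 1.51-fold lower (1.28 to 1.77), just short of the threshold on the log2 scale with the pseudocount (−0.55). Its change passed the threshold after centring (−0.66), quantile normalization (−0.60), GC correction (−0.67) and with a pseudocount of 0.1 RPKM (−0.59). Gsr, the reductase that regenerates glutathione from its oxidized form, went the other way, at 12.6 RPKM in Brpf1-null and 9.52 RPKM in wild-type, 1.33-fold higher (1.19 to 1.48). The cystine importer gene Slc7a11 was near the detection limit, at 0.0437 RPKM in Brpf1-null and 0.0407 RPKM in wild-type.

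The soluble glutathione transferases, which attach glutathione to electrophiles, held the largest decreases by fold beside Nqo1. Of 21 genes 13 were kept, 7 were lower past 1.5-fold and 1 was higher, and 12 had a negative change; the median was −0.68. Gsta3, an alpha-class enzyme, was at 0.697 RPKM in the Brpf1-null library and 5.74 RPKM in wild-type, 8.23-fold lower (4.66 to 15.3) from about 14 reads in Brpf1-null and 121 in wild-type. Gstt1, of the theta class, was at 1.78 RPKM in Brpf1-null and 9.38 RPKM in wild-type, 5.27-fold lower (3.77 to 7.54). Its neighbour in the class, Gstt2, was at 8.93 RPKM in Brpf1-null and 17.96 RPKM in wild-type, 2.01-fold lower (1.71 to 2.38). Gstt3 was at 1.75 RPKM in Brpf1-null and 2.75 RPKM in wild-type, a difference not detectable at this depth (0.392 to 1.02 as a fold of Brpf1-null over wild-type).

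Mu-class transferases did not move as a block. Gstm7 was at 3.10 RPKM in Brpf1-null and 9.78 RPKM in wild-type, 3.15-fold lower (2.31 to 4.42). Gstm5 was at 32.7 RPKM in Brpf1-null and 61.7 RPKM in wild-type, 1.88-fold lower (1.70 to 2.09), and Gstm1 at 27.3 RPKM in Brpf1-null and 44.8 RPKM in wild-type, 1.64-fold lower (1.47 to 1.82). Gstm4 was the exception, at 6.37 RPKM in Brpf1-null and 3.87 RPKM in wild-type, 1.64-fold higher (1.32 to 2.06), although its log2 change of 0.60 was within 1.5-fold after centring (0.49), quantile normalization (0.50), GC correction (0.52) or with a pseudocount of 5 RPKM (0.36). Gstm1 shared 19.9% of its 50-base stretches with transcripts of other annotated genes, among them Gstm3 and Gstm2-ps1, so reads of these copies may have been divided; Gstm4 and Gstm5 shared 0% and Gstm7 0.532%.

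Of the remaining soluble classes, Gstp1, the pi-class enzyme and the most abundant transferase of this group, was at 59.5 RPKM in Brpf1-null and 96.2 RPKM in wild-type, 1.62-fold lower (1.5 to 1.75). It shares 51.0% of its 50-base stretches with Gstp2, which was below 1 RPKM. Gsto1 (omega class) was at 45.6 RPKM in Brpf1-null and 57.2 RPKM in wild-type. Gstz1, which also acts in tyrosine breakdown, was at 29.5 RPKM in Brpf1-null and 40.8 RPKM in wild-type. Both lay within 1.5-fold, as did Gstk1 and Gsta4, each under 5 RPKM, and the intervals of Gsto1, Gstz1 and Gstk1 lay below 1 while that of Gsta4 included 1. Among the membrane-bound enzymes, Mgst3 was at 119.5 RPKM in Brpf1-null and 222.5 RPKM in wild-type, 1.86-fold lower (1.78 to 1.95), and Mgst1 at 18.5 RPKM in Brpf1-null and 33.6 RPKM in wild-type, 1.82-fold lower (1.59 to 2.08). Mgst2, whose product can also make the leukotriene LTC4, was at 34.4 RPKM in Brpf1-null and 25.4 RPKM in wild-type, 1.35-fold higher (1.16 to 1.58).

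**Figure D3:**
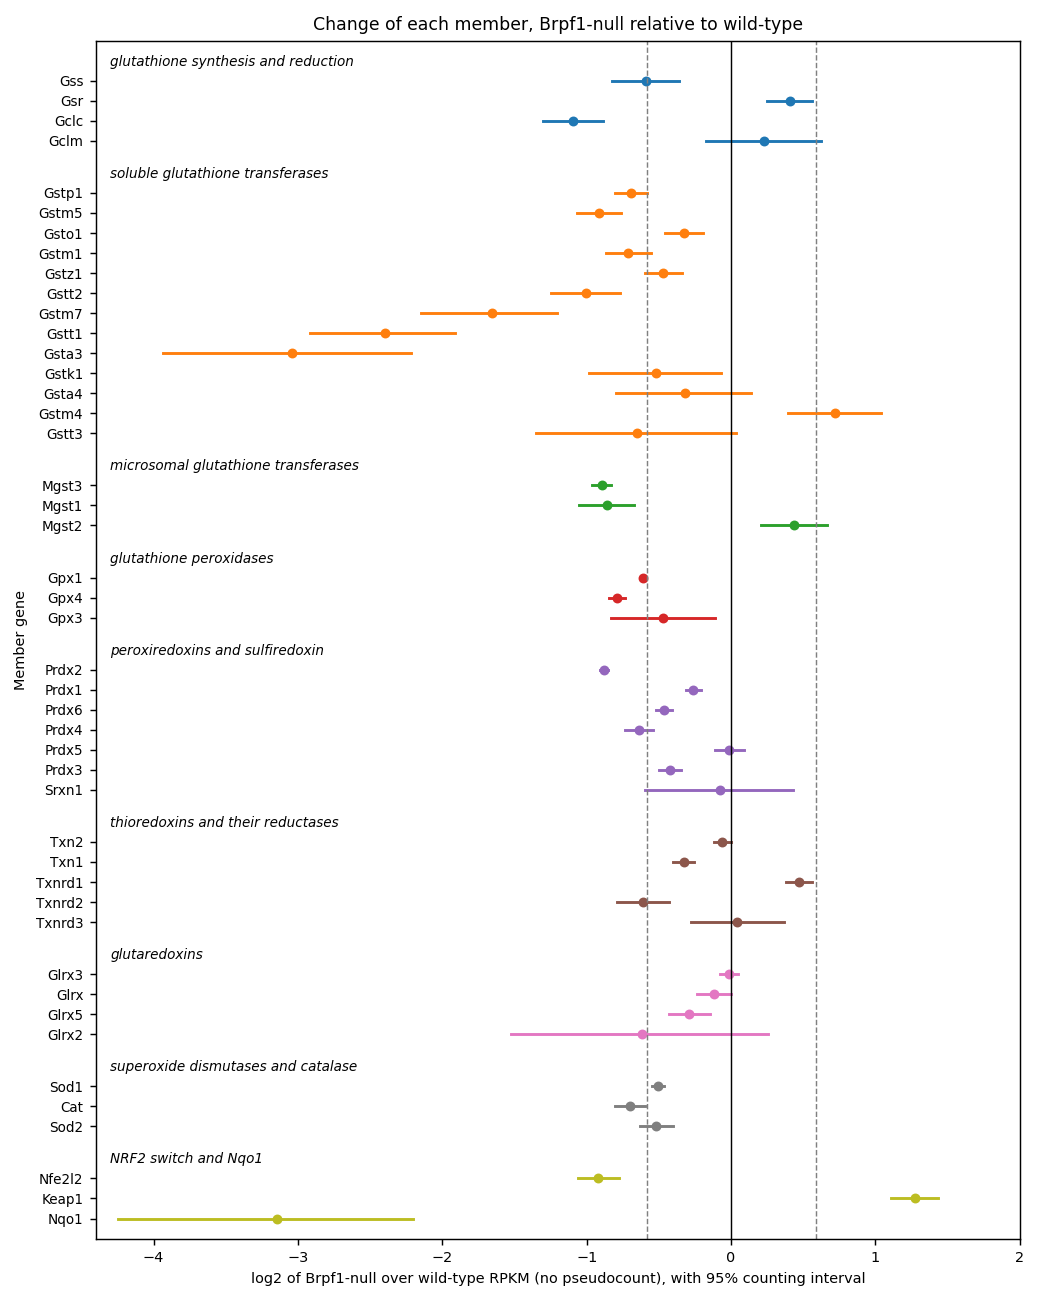
Log2 ratio of Brpf1-null over wild-type RPKM without a pseudocount (x axis) for each kept member, with its 95% counting interval (bar), coloured by family; the solid line marks no change and dashed lines 1.5-fold. Gsta3, Gstt1 and Nqo1 lie farthest left and Keap1 farthest right.

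Glutathione peroxidases reduce hydrogen peroxide and lipid peroxides. Gpx1, the cytosolic form, was at 1799 RPKM in the Brpf1-null library and 2742 RPKM in wild-type, 1.52-fold lower (1.503 to 1.55). It ranked 15 among all genes in Brpf1-null and 12 in wild-type. Its log2 change of −0.61 was the closest to the threshold of the lower members past it, and quantile normalization reduced it to −0.24, within 1.5-fold. Gpx4, which reduces lipid peroxides within membranes and holds back ferroptosis, was at 188.9 RPKM in Brpf1-null and 326.6 RPKM in wild-type, 1.73-fold lower (1.66 to 1.80). It shares 51.4% of its 50-base stretches with the pseudogene Gpx4-ps2. Gpx3, the secreted form, was at 5.96 RPKM in Brpf1-null and 8.25 RPKM in wild-type, 1.38-fold lower (1.08 to 1.78), within the threshold.

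Several members are selenoproteins, in which a TGA codon inside the coding sequence is read as selenocysteine and carries out the catalysis. An in-frame TGA was found in the GENCODE M21 coding sequences of 7 of the 61 members: Gpx1, Gpx2, Gpx3, Gpx4, Txnrd1, Txnrd2 and Txnrd3. The stretch around it is shown for the 6 kept ones, as the feature that sets these enzymes apart from the peroxiredoxins and transferases, with the TGA in capitals.
Gpx1: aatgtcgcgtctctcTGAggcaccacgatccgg
Gpx3: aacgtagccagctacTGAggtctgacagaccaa
Gpx4: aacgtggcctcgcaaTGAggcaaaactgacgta
Txnrd1: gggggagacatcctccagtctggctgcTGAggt
Txnrd2: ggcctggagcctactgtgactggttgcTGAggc
Txnrd3: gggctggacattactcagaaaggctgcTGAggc

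The codon stood at position 47 of 201 in Gpx1 and at 129 of 253 in the longest coding sequence of Gpx4, but at 612 of 613 in Txnrd1, 526 of 527 in Txnrd2 and 614 of 615 in Txnrd3, directly before the last codon. The 6 kept selenoprotein members had a median log2 change of −0.49 and ran from −0.79 (Gpx4) to 0.45 (Txnrd1). The 39 kept members without such a codon had a median of −0.46. In order of change, Gpx4, Gpx1, Txnrd2 and Gpx3 were negative, and Txnrd3 and Txnrd1 were positive, though Txnrd3 (0.03) turned negative after centring, quantile normalization and GC correction.

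Peroxiredoxins remove peroxide with a cysteine that thioredoxin then reduces, and all of the kept ones had a negative change under each scaling tried, though not to the same degree. Prdx2, the abundant red cell form, was at 432 RPKM in the Brpf1-null library and 795 RPKM in wild-type, 1.84-fold lower (1.80 to 1.88). Its cytosolic relative Prdx1 was at 382 RPKM in Brpf1-null and 458 RPKM in wild-type, 1.20-fold lower (1.16 to 1.24). The Prdx2 to Prdx1 ratio was 1.13 in Brpf1-null and 1.74 in wild-type. Prdx4, which works in the secretory pathway, was at 66.1 RPKM in Brpf1-null and 103 RPKM in wild-type, 1.56-fold lower (1.46 to 1.67). The mitochondrial Prdx3, at 67.9 RPKM in Brpf1-null and 91.0 RPKM in wild-type, and Prdx6, at 114.7 RPKM in Brpf1-null and 158.3 RPKM in wild-type, were 1.34-fold and 1.38-fold lower, within the threshold. Prdx5 was level, at 98.8 RPKM in Brpf1-null and 99.7 RPKM in wild-type. Srxn1, sulfiredoxin, which repairs over-oxidized peroxiredoxins, was at 1.01 RPKM in Brpf1-null and 1.06 RPKM in wild-type, from about 63 reads in Brpf1-null and 71 in wild-type.

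The thioredoxins and their reductases lay within 1.5-fold in all 5 genes. Txn1, the cytosolic thioredoxin, was at 119.7 RPKM in the Brpf1-null library and 150.3 RPKM in wild-type, 1.26-fold lower (1.20 to 1.32). The mitochondrial Txn2 was at 190.8 RPKM in Brpf1-null and 198.9 RPKM in wild-type, and its interval included 1. Txnrd1 and Txnrd2 differed in opposite directions. Cytosolic Txnrd1 was at 31.0 RPKM in Brpf1-null and 22.4 RPKM in wild-type, 1.39-fold higher (1.30 to 1.48). Mitochondrial Txnrd2 was at 10.7 RPKM in Brpf1-null and 16.3 RPKM in wild-type, 1.52-fold lower (1.35 to 1.73); its log2 change of −0.57 passed the threshold after centring (−0.68), quantile normalization (−0.62) and GC correction (−0.74). The Txnrd1 to Txnrd2 ratio was 2.90 in Brpf1-null and 1.37 in wild-type. Txnrd3, the form with a glutaredoxin domain, was at 2.71 RPKM in Brpf1-null and 2.64 RPKM in wild-type.

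All 4 glutaredoxins, small thiol oxidoreductases that draw on glutathione, also lay within 1.5-fold. Glrx3, a carrier of iron-sulfur clusters, was at 115.2 RPKM in Brpf1-null and 116.3 RPKM in wild-type. Glrx was at 38.9 RPKM in Brpf1-null and 42.2 RPKM in wild-type. Glrx5, which is needed for mitochondrial iron-sulfur clusters and heme synthesis in red cell precursors, was at 17.7 RPKM in Brpf1-null and 21.6 RPKM in wild-type, 1.22-fold lower (1.11 to 1.35). Glrx2 rested on about 19 reads in Brpf1-null and 31 in wild-type, and its difference was not detectable at this depth.

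Of the 3 kept superoxide dismutase and catalase genes, 1 was lower past 1.5-fold, Cat, and both dismutases lay within it. Sod1, the cytosolic copper-zinc enzyme, was at 543 RPKM in the Brpf1-null library and 771 RPKM in wild-type, 1.42-fold lower (1.38 to 1.46). The mitochondrial manganese enzyme Sod2 was at 14.7 RPKM in Brpf1-null and 21.0 RPKM in wild-type, 1.43-fold lower (1.32 to 1.55). The ratio of Sod1 to Sod2 was nearly the same in both libraries, 37.0 in Brpf1-null and 36.7 in wild-type. Past 1.5-fold both dismutases were lower after centring (Sod1 −0.62, Sod2 −0.60) and GC correction (Sod1 −0.61, Sod2 −0.59). Cat, catalase, which splits hydrogen peroxide in peroxisomes, was at 31.5 RPKM in Brpf1-null and 51.0 RPKM in wild-type, 1.62-fold lower (1.51 to 1.74). Sod1 shares 23.1% of its 50-base stretches with the annotated gene Gm8566.

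Nfe2l2 and Keap1 differed in opposite directions. Nfe2l2 was at 11.2 RPKM in the Brpf1-null library and 21.1 RPKM in wild-type, 1.89-fold lower (1.72 to 2.09). Keap1, its inhibitor, was at 14.49 RPKM in Brpf1-null and 6.00 RPKM in wild-type, 2.42-fold higher (2.16 to 2.71), the largest increase of any member. The ratio of Nfe2l2 to Keap1 transcript was 0.769 in Brpf1-null and 3.52 in wild-type. Both calls held under each of the 7 other settings. Nqo1, a quinone reductase and a standard NRF2 target, was at 0.290 RPKM in Brpf1-null and 2.56 RPKM in wild-type, 8.83-fold lower (4.60 to 19.0), but from only about 10 reads in Brpf1-null and 94 in wild-type, and it was within 1.5-fold with a pseudocount of 5 RPKM (−0.52). Keap1 transcripts are GC-rich (59.2%), and its log2 change was 0.94 after the GC trend was removed, against 1.15 before.

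The members' promoters were searched for the core of the antioxidant response element, TGACNNNGC, on both strands, in RefSeq windows of 250 bases before to 50 after the start (GRCm38.p6). Promoters were matched for 54 of the 61 members, and 10 of these (18.5%) held a match, beside 14.0% of 27025 genes in all. The matches are shown with up to 15 bases on each side, 5′ to 3′ on the gene's strand, with the core in capitals (its reverse complement where the match lies on the opposite strand). The first 5 are members past 1.5-fold lower and the last 5 are members within 1.5-fold.
Gsta3 (chr1:21240449-21240487, plus strand): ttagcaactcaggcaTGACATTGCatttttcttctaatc
Gstm5 (chr3:107895797-107895835, plus strand): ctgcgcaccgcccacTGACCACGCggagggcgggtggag
Gstm7 (chr3:107931720-107931758, minus strand): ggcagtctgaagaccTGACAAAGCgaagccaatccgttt
Mgst1 (chr6:138140456-138140494, plus strand): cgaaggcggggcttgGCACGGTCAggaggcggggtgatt
Nfe2l2 (chr2:75704880-75704913, minus strand): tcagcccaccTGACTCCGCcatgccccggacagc
Prdx1 (chr4:116685451-116685489, plus strand): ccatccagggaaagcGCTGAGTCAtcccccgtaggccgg
Sod1 (chr16:90220691-90220729, plus strand): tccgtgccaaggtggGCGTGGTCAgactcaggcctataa
Srxn1 (chr2:152105537-152105573, plus strand): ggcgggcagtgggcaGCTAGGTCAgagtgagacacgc
Gclm (chr3:122245408-122245446, plus strand): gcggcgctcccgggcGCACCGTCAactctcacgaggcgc
Txnrd1 (chr10:82859099-82859137, plus strand): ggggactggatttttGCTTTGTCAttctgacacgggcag

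The 10 members with a match had a median log2 change of −0.67, with 5 lower and 0 higher past 1.5-fold. The 30 kept members with a promoter and no match had a median of −0.44, with 10 lower and 2 higher. Over all kept genes 9.42% were lower and 14.1% higher, and these were not split by match. The median of the 10 fell in the gap between Mgst1 (−0.83) and Sod1 (−0.51), and its difference from −0.44 was not tested. A match to these letters is not evidence of binding, and elements outside the windows were not searched. Txnrd1 and Gclm, whose windows are shown, were the 2 with a positive change, at 0.45 and 0.19.

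Both systems draw on NADPH. Of 17 genes for NADPH supply 14 were kept; 9 lay within 1.5-fold, 5 were higher past 1.5-fold and 0 lower, with a median log2 change of 0.46 that ran from 0.34 to 0.48 over all settings. Tkt, a transketolase of the pentose phosphate pathway, was at 148.3 RPKM in the Brpf1-null library and 55.4 RPKM in wild-type, 2.68-fold higher (2.57 to 2.79). Pgd, which makes NADPH in the same pathway, was at 58.6 RPKM in Brpf1-null and 26.9 RPKM in wild-type, 2.18-fold higher (2.04 to 2.32). H6pd, an endoplasmic reticulum enzyme, was 2.53-fold higher (2.10 to 3.08) and Pgls 1.71-fold higher (1.45 to 2.03). G6pdx, which starts the pathway, was at 19.7 RPKM in Brpf1-null and 14.4 RPKM in wild-type, within the threshold on the log2 scale (0.43).

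Other genes of glutathione supply and turnover had a median log2 change of −0.28, which was −0.14 with a pseudocount of 5 RPKM and −0.01 with no filter on low values, with 4 of 13 kept lower and 0 higher past 1.5-fold. Cth, which makes cysteine from cystathionine, was at 0.450 RPKM in Brpf1-null and 2.02 RPKM in wild-type, 4.49-fold lower (2.71 to 8.02). Chac2, which degrades glutathione, was 2.15-fold lower (1.75 to 2.67), and Hagh, a hydrolase of the glyoxalase pathway, 1.73-fold lower (1.46 to 2.04). Of the glutathione conjugate exporters, Abcc5 was 1.72-fold lower (1.46 to 2.03) and Abcc1 was at 5.65 RPKM in Brpf1-null and 3.67 RPKM in wild-type, short of the threshold.

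NRF2 targets outside the members went both ways, with 2 of 12 kept higher, 2 lower and a median of 0.33, which was 0.14 with no filter. Hmox1, heme oxygenase and a standard target, was below the filter: it was listed at 0 in Brpf1-null and was at 1.15 RPKM in wild-type. The lower ones were Blvrb, a biliverdin reductase that is also an erythroid gene, at 32.9 RPKM in Brpf1-null and 172.3 RPKM in wild-type (5.23-fold lower, 4.81 to 5.70), and the ferritin gene Fth1, at 833 RPKM in Brpf1-null and 2029 RPKM in wild-type (2.44-fold lower, 2.38 to 2.49). The higher ones were Tkt and Pgd. Among NRF2's partners and regulators, 3 of 12 were higher and 1 lower, with a median of 0.09 that was −0.02 after centring. The small MAF genes split: Mafk was at 5.65 RPKM in Brpf1-null and 1.83 RPKM in wild-type, 3.10-fold higher (2.54 to 3.83), and Mafg at 3.83 RPKM in Brpf1-null and 7.09 RPKM in wild-type, 1.85-fold lower (1.41 to 2.43). The NRF2 relative Nfe2l1 was 2.23-fold higher (1.92 to 2.61) and Dpp3, a peptidase that binds KEAP1, 1.62-fold higher (1.39 to 1.89).

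Genes that make or use the same disulfide chemistry had a median near the background, 0.13 over 26 kept, with 3 higher and 3 lower past 1.5-fold. Qsox1, a sulfhydryl oxidase, was at 9.45 RPKM in Brpf1-null and 0.966 RPKM in wild-type, 9.78-fold higher (7.54 to 13.0). Rrm2, the small subunit of the thioredoxin-dependent ribonucleotide reductase, was at 119.1 RPKM in Brpf1-null and 230.3 RPKM in wild-type, 1.93-fold lower (1.84 to 2.03). Pdia3, a disulfide isomerase, was 2.62-fold lower (2.34 to 2.95) and Sesn1, a stress-induced sestrin, 1.91-fold lower (1.80 to 2.03). Txnip, the thioredoxin inhibitor, was level, at 22.1 RPKM in Brpf1-null and 23.1 RPKM in wild-type.

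**Figure D4:**
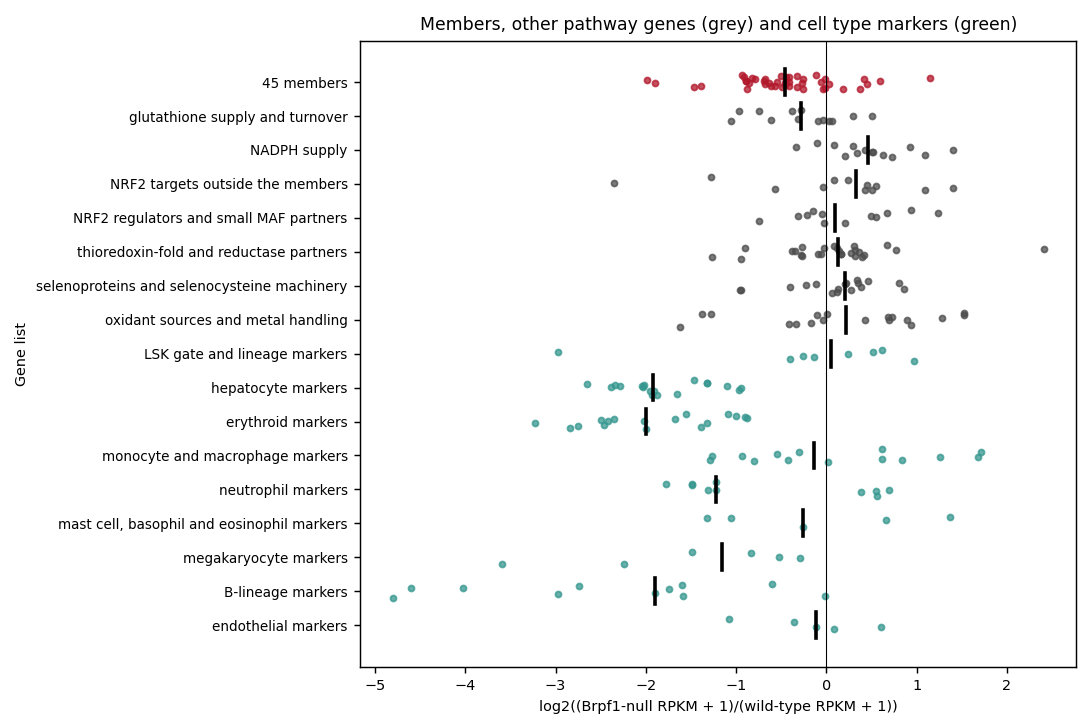
Log2 change of Brpf1-null over wild-type (x axis, log2 of RPKM + 1) for each kept gene (point) of the members (red), other pathway lists (grey) and cell type marker lists (green); black bars are medians. The members' median is −0.46, that of NADPH supply 0.46, and those of hepatocyte and erythroid markers −1.92 and −1.99.

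The members' changes were compared with the GC content of their transcripts, since log2 change was higher at higher GC over all genes (Spearman rho = 0.276 over 9260 genes, as a description; genes share both libraries). Over the 45 kept members rho was −0.06. The members' median GC content was 51.6%, beside 50.8% over all kept genes, and their median change was −0.53 after the GC trend was removed. Brpf1 itself was at 2.15 RPKM in the Brpf1-null library and 2.59 RPKM in wild-type, 1.20-fold lower (1.00 to 1.44), so a value over the whole gene did not show its loss.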

How the data were processed

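LSK cells (about 10000 per sample) were sorted per the labels, and libraries primed with oligo-dT were read on HiSeq machines. Reads were aligned with TopHat to mm9, per the submitters' processing notes; no source used here names the counter, annotation or filters. Each pair has 1 deposited table, in RPKM for the first and FPKM for the second, per the file headers. Both also hold the authors' fold (a ratio with wild-type on top) and its log2, which were not used. All 20207 gene symbols matched between the tables and 0 values differed, so they were used as 1 library per genotype and the planned limma fit was replaced by description.

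Genes averaging 1 RPKM or more were kept (9380). Library sizes were estimated by finding the read number at which low values become whole reads, given GENCODE M21 transcript lengths: 54.8% of 314 Brpf1-null and 56.7% of 321 wild-type values up to 8 reads were whole within 0.05 read, against 9.29% (Brpf1-null) and 13.0% (wild-type) with sizes raised by 5%. Read numbers are estimates from median transcript lengths, and folds carry exact Clopper-Pearson intervals (scipy 1.17.1). The size recovery and the 1.5-fold rule were tested on simulated data. The members and lists were chosen with earlier results of these data known. Named genes are all members plus up to 4 kept genes per list with the largest absolute change, the most abundant hepatocyte and erythroid marker, and Brpf1; Cyba, Ncf1, Ncf4, Rac2, G6pdx, Abcc1, Txnip, Hmox1 and the gate and B-lineage genes were named after their values were seen. GC trends were fitted by lowess (statsmodels 0.14.6). GENCODE and RefSeq tables (GRCm38) gave names, lengths and sequences only. A few genes are not reported here by name.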

Additional observations from a re-analysis of the deposited data

How the results depend on the processing

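No paired analysis was possible because the tables of both pairs held the same values, and leaving out a replicate was not run for the same reason. The count of members lower past 1.5-fold was 15 to 21 under the 7 other settings of pseudocount, filter and scaling (17 as reported). It was 4 at a 2-fold threshold, where 3.46% of all genes were lower. The members kept ran from 36 (mean of at least 5 RPKM) to 56 (no filter). Under the 7 settings 33.3% (pseudocount of 5 RPKM) to 46.7% (centring) of members were lower. Of all kept genes, 4.19% (pseudocount of 5 RPKM) to 12.8% (centring) were lower. The count higher was 1 in place of 2 with a pseudocount of 5 RPKM, after centring, after quantile normalization, after removal of the GC trend and at 2-fold. The members' median stayed between −0.57 (centring) and −0.40 (pseudocount of 5 RPKM). Of the 17 lower members, 14 kept the call under each setting that retained them; Gclc (−0.56) and Nqo1 (−0.52) lost it with a pseudocount of 5 RPKM and Gpx1 (−0.24) after quantile normalization. The call was gained by Gss and Txnrd2 under 4 settings each, by Sod1 and Sod2 after centring and GC correction, and by Glrx2 and Gstt3 with a pseudocount of 0.1 RPKM. Over all genes, 1323 were higher and 884 lower as reported, 554 higher and 393 lower with a pseudocount of 5 RPKM, and 388 higher and 325 lower at 2-fold, both settings that ask for a larger change by construction. With 1 library per genotype, differences between embryos or pools cannot be separated from the genotype.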

Other observations

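Genes that produce oxidants or handle redox-active metals differed in both directions. Of 25 such genes 18 were kept, and 8 were higher and 3 lower past 1.5-fold in the Brpf1-null library. Subunits of the phagocyte NADPH oxidase, which makes superoxide, were among the higher ones: Cybb, its catalytic subunit, was at 7.43 RPKM in Brpf1-null and 1.94 RPKM in wild-type, 3.83-fold higher (3.12 to 4.74). Ncf1, an organizer of the complex, was at 29.0 RPKM in Brpf1-null and 11.4 RPKM in wild-type, 2.55-fold higher (2.34 to 2.78). Cyba was 1.87-fold and Ncf4 1.94-fold higher, while the GTPase gene Rac2 was within 1.5-fold, at 180.6 RPKM in Brpf1-null and 203.7 RPKM in wild-type. The oxidase is a known feature of phagocytes. Monocyte and macrophage markers went both ways: 6 of 14 kept were higher and 4 lower, and none was listed at 0. Their sums were 272 RPKM in Brpf1-null and 214 RPKM in wild-type. Their median log2 change was −0.14, but 0.62 over the 7 that averaged at least 5 RPKM. The part of these markers in the oxidase values was not tested. Nor was that of neutrophil markers, of which 6 of 10 kept were lower and 1 higher. Of these, S100a8 was at 21.4 RPKM in Brpf1-null and 75.6 RPKM in wild-type, while Mpo, which belongs to both lists, was at 570.1 RPKM in Brpf1-null and 351 RPKM in wild-type.

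Ccs, the chaperone that loads copper into SOD1, was at 49.0 RPKM in Brpf1-null and 16.3 RPKM in wild-type, 3.004-fold higher (2.66 to 3.40), while Sod1 was 1.42-fold lower. The 3 lower genes of this group were the metallothioneins Mt1, at 109.8 RPKM in Brpf1-null and 286.5 RPKM in wild-type, and Mt2, at 17.8 RPKM in Brpf1-null and 56.8 RPKM in wild-type, with Fth1 as the third. Among 17 kept genes for other selenoproteins and for selenocysteine insertion, 2 were higher, 2 lower and 13 within 1.5-fold. Secisbp2, which recruits the insertion machinery, was 2.00-fold higher (1.67 to 2.39) and Trnau1ap 1.97-fold higher (1.5 to 2.57). Sepsecs, which completes selenocysteine on its tRNA, was at 0.514 RPKM in Brpf1-null and 1.91 RPKM in wild-type, and Sepp1, the secreted selenium carrier made largely by hepatocytes, was at 32.6 RPKM in Brpf1-null and 64.3 RPKM in wild-type.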
